A study of Mus musculus with 6 samples.

Results

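Glycolysis, the pyruvate dehydrogenase step, the tricarboxylic acid (TCA) cycle and the pentose phosphate pathway were followed through 47 genes named for their enzymes. They were taken by gene name from the deposited table of 25718 genes. The set held 18 genes of glycolysis, 7 of pyruvate dehydrogenase and its regulators, 15 of the TCA cycle and 7 of the pentose phosphate pathway. All 47 were found, and all 47 had enough counts to be tested.

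RNA was sequenced from hepatocytes, the main cell type of the liver, isolated from mice that had received alcohol. There were 3 libraries from WT mice and 3 from S100a16KO+/- mice. Per the study's methods the mice were males of 8 to 10 weeks on a C57BL/6 background. S100a16KO+/- mice carried 1 deleted allele, made by crossing a floxed S100a16 allele with EIIa-Cre mice, which express the recombinase in the early embryo, so that the deletion was not restricted to hepatocytes. Heterozygotes were used because mice without any functional allele did not survive, and the sample labels call the same group an S100A16 knockdown. Both genotypes had the same feeding, with 5 days of control liquid diet, 10 days at 5% ethanol and 1 ethanol gavage of 5 g/kg followed by 9 h. Mice without alcohol were not analysed here, so all values below are for alcohol-fed animals. The cells were isolated by collagenase perfusion and separation on Percoll.

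Glycolysis splits glucose into pyruvate, and pyruvate dehydrogenase turns pyruvate into acetyl-CoA, which the TCA cycle oxidises in the mitochondrion. The pentose phosphate pathway branches off at glucose 6-phosphate and yields NADPH and ribose phosphate. Adult hepatocytes use their own isoenzymes for several of these steps, such as the liver form of pyruvate kinase, and the oxidation of ethanol loads the same cells with NADH, which several of these dehydrogenases also form.

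Library totals ran from 67658095 to 71807834 estimated counts, and a sequenced fragment was taken to be worth about 4 of these counts. S100a16 had 1001, 1056 and 1107 counts in the WT libraries and 433, 390 and 366 counts in the S100a16KO+/- libraries. Of 10 hepatocyte markers, 2 were higher and 3 lower in S100a16KO+/- cells, and their summed level was 133000 to 144300 CPM (counts scaled by library size) in WT and 128900 to 141000 CPM in S100a16KO+/- libraries. Other cells were also represented, and in unequal amounts. Of 10 endothelial markers, 9 were higher and 1 lower in S100a16KO+/- libraries, of 10 stellate and fibroblast markers 4 were higher, of 10 macrophage markers 3 were higher, and all 6 tested red cell markers were lower. In such bulk samples, fewer cells of a type and less RNA per cell cannot be told apart. The mitochondrial share of the counts ran from 17.0% to 21.1% and was largest in WT replicate 1 and S100a16KO+/- replicate 2.

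In S100a16KO+/- hepatocytes, 24 of the 47 genes differed from WT at an adjusted p under 0.05 (edgeR's quasi-likelihood test on the estimated counts, Benjamini-Hochberg adjustment over 15957 tested genes). Of all tested genes, 22.8% did so. The direction was mostly downward, with 17 genes lower (background 11.2%) and 7 higher (background 11.6%). The median log2 fold change was -0.13 over the 47 genes and 0.01 over all tested genes. Calls are more frequent among abundant genes. Of the 9043 tested genes with a mean of at least 1 FPKM (fragments scaled by transcript length and library size), 32.7% were called, with 15.5% higher and 17.2% lower, and 40 of the 47 genes lay in that range, of which 6 were higher and 16 lower.

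The changes were small. The 24 log2 fold changes ran from 0.14 to 0.88 in size, and 21 of them were under 0.5. The study's own criterion, an unadjusted p under 0.05 with a fold change of at least 2, was met by 0 of the 47 genes in edgeR, against 4.52% of all tested genes. DESeq2 and limma voom also gave 0 by that criterion. Without WT replicate 1 the count was 1, the gene being Ldhb. An unadjusted p under 0.05 alone was reached in edgeR by 31 of the 47, the row of Gapdh among them. The share of all tested genes at that threshold was not counted. On CPM scaled by TMM (edgeR's correction of library size), the 3 libraries of a genotype lay wholly above or below the other 3 for 9 genes that were higher (background 19.2%) and 21 that were lower (background 18.6%), or 30 of 47 beside 37.9% of all tested genes. Replicates varied little, with a median coefficient of variation of 5.23% over the WT libraries and 5.13% over the others. S100a16KO+/- replicate 2 was the lowest of the 6 libraries for 21 of the 47 genes. Without it, 6 genes were higher and 17 lower.

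**Figure D1:**
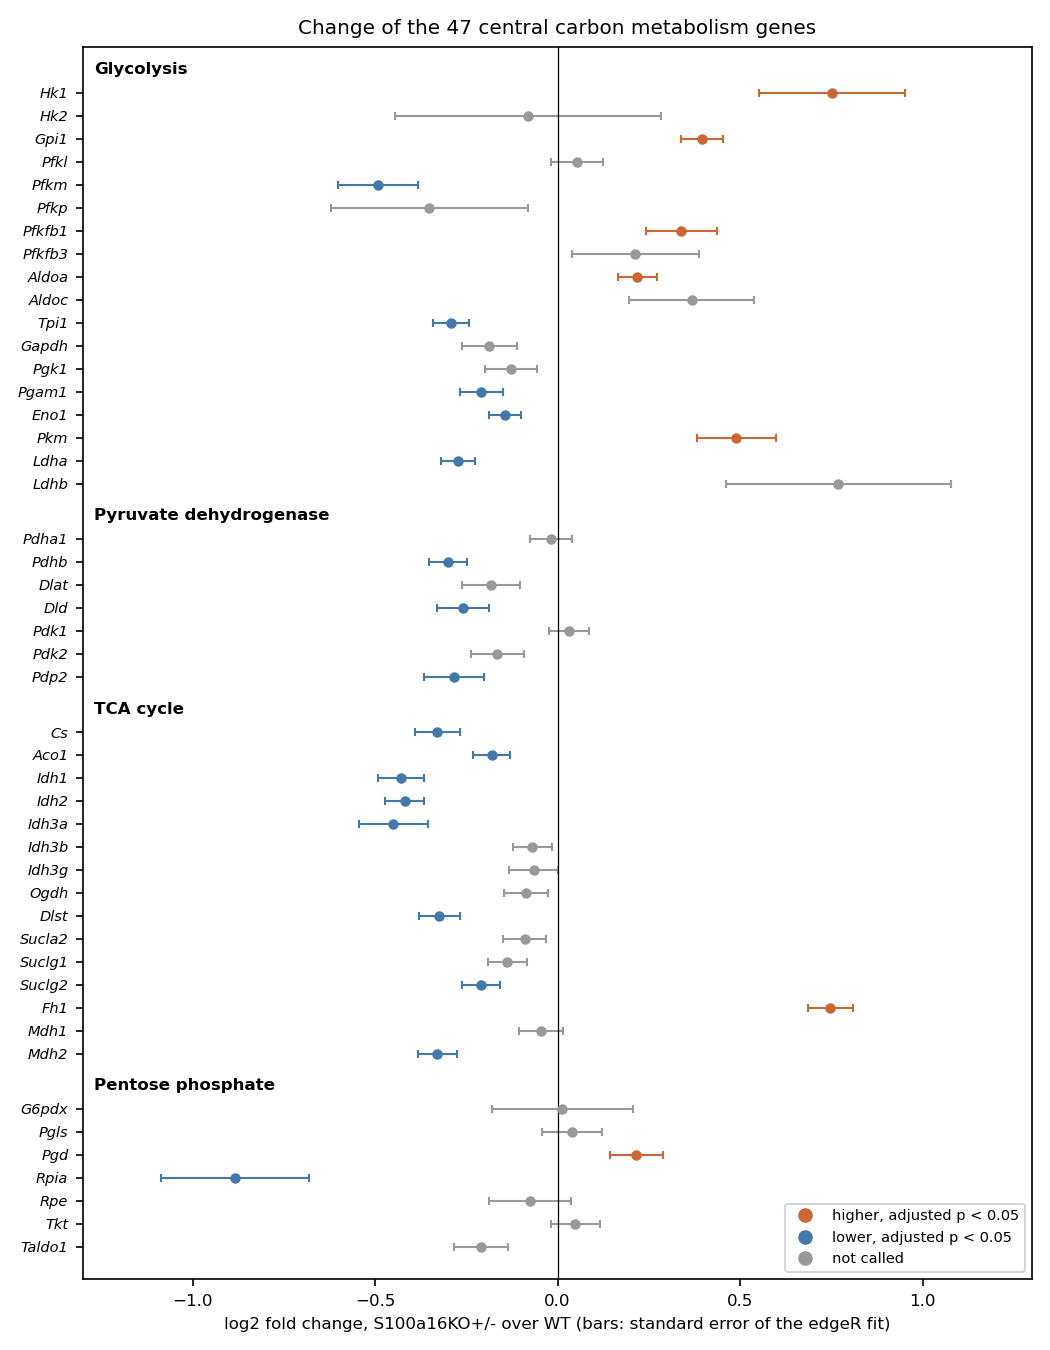
Log2 fold change of each of the 47 genes in S100a16KO+/- over WT hepatocytes (horizontal axis), with the standard error of the edgeR fit as bars, grouped by pathway. Orange points are the 7 genes called higher, blue points the 17 called lower and grey points the 23 not called, and 14 of the 15 TCA cycle genes lie left of 0, with Fh1 the exception.

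The sequence just upstream of the transcription start is shown for the called genes with the largest changes (Hk1 and Fh1 among those that rose, Pfkm and Rpia among those that fell) and for Ldha, the glycolysis gene of the set with the highest FPKM. Each is the 250 bases before the RefSeq start nearest to the gene's start in the table, on GRCm38.p6, 5′ to 3′ on the gene's own strand. Capitals mark matches on either strand to ACGTG, the core of the hypoxia response element, or to CACGTG, the E-box bound by Myc and by the carbohydrate response factor ChREBP. Each CACGTG holds ACGTG on both strands.
Fh1, minus strand, chr1:175625636-175625885: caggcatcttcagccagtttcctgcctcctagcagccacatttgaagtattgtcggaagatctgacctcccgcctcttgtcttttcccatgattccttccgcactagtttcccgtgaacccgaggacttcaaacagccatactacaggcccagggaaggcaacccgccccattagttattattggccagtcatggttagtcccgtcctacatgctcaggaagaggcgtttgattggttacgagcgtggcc
Hk1, minus strand, chr10:62379909-62380158: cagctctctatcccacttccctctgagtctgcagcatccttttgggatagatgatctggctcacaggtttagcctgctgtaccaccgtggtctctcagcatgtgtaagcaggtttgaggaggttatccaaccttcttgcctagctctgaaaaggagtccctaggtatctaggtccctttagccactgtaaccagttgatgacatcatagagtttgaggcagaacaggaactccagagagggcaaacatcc
Ldha, plus strand, chr7:46845554-46845803: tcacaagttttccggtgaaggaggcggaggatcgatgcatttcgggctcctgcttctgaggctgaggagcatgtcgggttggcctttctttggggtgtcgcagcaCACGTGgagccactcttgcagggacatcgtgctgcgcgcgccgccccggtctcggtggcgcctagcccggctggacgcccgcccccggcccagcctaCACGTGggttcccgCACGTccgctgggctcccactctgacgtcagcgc
Pfkm, plus strand, chr15:98092339-98092588: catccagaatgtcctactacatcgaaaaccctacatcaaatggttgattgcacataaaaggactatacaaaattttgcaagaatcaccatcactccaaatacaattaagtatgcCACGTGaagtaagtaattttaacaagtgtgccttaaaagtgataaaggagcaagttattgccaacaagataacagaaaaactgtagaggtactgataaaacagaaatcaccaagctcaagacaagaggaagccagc
Rpia, minus strand, chr6:70792176-70792425: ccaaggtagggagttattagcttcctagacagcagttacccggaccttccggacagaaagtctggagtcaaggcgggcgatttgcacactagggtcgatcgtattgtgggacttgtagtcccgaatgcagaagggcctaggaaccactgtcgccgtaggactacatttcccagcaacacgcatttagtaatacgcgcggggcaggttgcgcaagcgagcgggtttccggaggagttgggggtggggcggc

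The Ldha stretch carried 2 CACGTG matches and 1 further ACGTG match, the Pfkm stretch carried 1 CACGTG match, and the other 3 stretches carried neither. The Ldha start used lies 4329 bases downstream of the gene's start in the table. Hk1, Ldha and Pfkm have further RefSeq starts, whose stretches are not shown. RefSeq gave 70 promoter windows, from 250 bases before to 50 bases after a start, for 46 of the 47 genes (Idh3a was the other). ACGTG was found in 26 of the 70 (37.1%) and in 19.6% of all 32851 mouse windows of this length. The 26 include windows of Hk1 and Pfkm starts whose stretches are not shown. CACGTG was found in 8 of the 70 (11.4%) and in 7.15% of all windows. TGACNNNGC, the core of the antioxidant response element, was found in 9 of the 70 (12.9%) and in 12.4% of all windows. The ER stress response element, searched by name, was found in 0 of the 70 and in 0.119% of all windows. Such matches are letters in a window, several windows belong to the same gene, and binding was not measured.

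**Figure D2:**
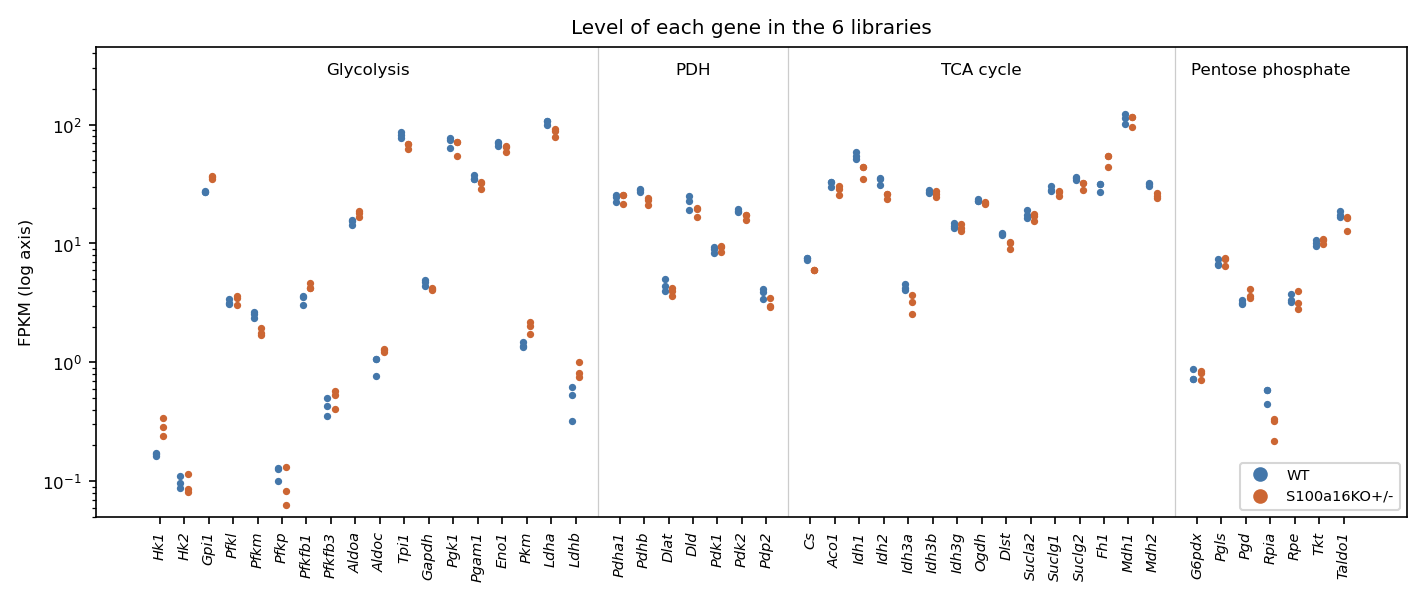
FPKM (log axis) of each of the 47 genes in the 3 WT libraries (blue) and the 3 S100a16KO+/- libraries (orange), in pathway order. Levels run from about 0.1 FPKM (Hk2, Pfkp) to about 110 FPKM (Mdh1).

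In glycolysis, 5 of 18 genes were higher (Hk1, Gpi1, Pfkfb1, Aldoa and Pkm) and 5 were lower (Pfkm, Tpi1, Pgam1, Eno1 and Ldha) in S100a16KO+/- hepatocytes. That is 27.8% in each direction, beside 11.6% higher and 11.2% lower of all tested genes. With a mean of at least 1 FPKM, the range of 13 of the 18, 15.5% of tested genes were higher and 17.2% lower. The 3 with the highest levels among the 10, Ldha, Tpi1 and Eno1, were all lower. The median log2 fold change was -0.01, and its sign depended on the settings, from -0.12 with the FPKM values at a mean of at least 1 to 0.06 with a filter of at least 1 CPM.

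At the entry of the pathway, Hk1, a hexokinase of most tissues outside the hepatocyte (chromosome 10, 62268855 to 62379908), had 0.173, 0.171 and 0.164 FPKM in the WT libraries and 0.285, 0.242 and 0.341 FPKM in the S100a16KO+/- libraries. All 3 S100a16KO+/- libraries were above all 3 WT libraries (log2 fold change 0.75 ± 0.20, SE, adjusted p = 0.0139), but the level stayed low, at 106 to 226 counts per library. The call was lost without WT replicate 3 (adjusted p = 0.0552) and without S100a16KO+/- replicate 3 (adjusted p = 0.0712). Hk2, the insulin-regulated hexokinase of muscle and fat, was also low and was not called (-0.08 ± 0.36, adjusted p = 0.911).

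Hk1 and Pkm, the pyruvate kinase of tissues other than liver, are also expressed by non-parenchymal liver cells. Beside their rise, the summed level of the 10 endothelial markers was 294 to 314 CPM in WT and 434 to 454 CPM in S100a16KO+/- libraries, and that of the 10 stellate and fibroblast markers was 41.95 to 45.1 CPM and 74.6 to 80.0 CPM. The sum of the 7 red cell markers in the table fell from between 215 and 253 CPM to between 23.5 and 26.45 CPM. No listed endothelial or stellate marker was at 0 in either genotype. The part of these cells in the values of Hk1 and Pkm was not tested.

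Gpi1, which converts glucose 6-phosphate to fructose 6-phosphate, had 27.0, 27.2 and 27.6 FPKM in WT and 35.2, 36.7 and 36.3 FPKM in S100a16KO+/- libraries, a narrow spread within each genotype and a gap between them (0.40 ± 0.06, adjusted p = 1.63e-04). It kept its call in all 18 alternatives. At the next, regulated step the muscle-type subunit Pfkm fell by 0.49 ± 0.11 on the log2 scale (adjusted p = 0.00482), from 2.52 ± 0.16 to 1.80 ± 0.12 FPKM (SD, n = 3), while the liver-type subunit Pfkl did not pass the test (0.05 ± 0.07, adjusted p = 0.667), nor did the platelet type Pfkp (-0.35 ± 0.27, adjusted p = 0.411). Pfkfb1, the liver form of the bifunctional enzyme that sets fructose 2,6-bisphosphate, was higher (0.34 ± 0.10, adjusted p = 0.0218), though not without WT replicate 2 (adjusted p = 0.10), WT replicate 3 (0.0543) or S100a16KO+/- replicate 3 (0.0757). Pfkfb3 was not called (0.21 ± 0.17, adjusted p = 0.443).

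Among the later enzymes, Aldoa, the aldolase of muscle and of most other tissues, was higher (0.22 ± 0.05, adjusted p = 0.00765), and Aldoc, the aldolase of brain, was not called (0.37 ± 0.17, adjusted p = 0.147). Tpi1, triosephosphate isomerase, fell by 0.29 ± 0.05 (adjusted p = 6.32e-04), from 81.5 ± 4.53 to 67.0 ± 3.60 FPKM. Pgam1, phosphoglycerate mutase, and Eno1, enolase, fell by 0.21 ± 0.06 and 0.14 ± 0.04 (adjusted p = 0.0180 and 0.0324). The Pgam1 call did not hold without WT replicate 1 (adjusted p = 0.0604) or WT replicate 3 (0.0851). Eno1, the smallest called change of the set, kept its call in 9 of 18 alternatives and lost it without each library other than S100a16KO+/- replicate 2 (adjusted p between 0.0733 and 0.107). Pgk1, phosphoglycerate kinase, did not pass the test (-0.13 ± 0.07, adjusted p = 0.242).

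Pkm rose from 1.38, 1.34 and 1.48 FPKM in WT to 2.20, 1.72 and 2.03 FPKM in S100a16KO+/- libraries, without overlap (0.49 ± 0.11, adjusted p = 0.00464). Ldha, which interconverts pyruvate and lactate (chromosome 7, 46841475 to 46855627), had the highest FPKM of the 18 genes as deposited, a ranking that leaves out Gapdh, whose row could not be read. It had 98.7, 107 and 107 FPKM in WT and 88.9, 79.1 and 92.7 FPKM in S100a16KO+/- libraries, and all 3 were under the lowest WT value (-0.27 ± 0.05, adjusted p = 7.16e-04). Ldhb, the heart-type subunit, went the other way in its 6 values, 0.624, 0.320 and 0.527 FPKM against 0.813, 0.754 and 1.01 FPKM, but at 39 to 123 counts per library it did not pass the test (0.77 ± 0.31, adjusted p = 0.0925).

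Gapdh, the glyceraldehyde 3-phosphate dehydrogenase often used as a reference gene, could not be read from its own row. That row held 4.69 ± 0.25 FPKM in WT and 4.13 ± 0.11 FPKM in S100a16KO+/- libraries (-0.19 ± 0.08, adjusted p = 0.0997), about as little as Dlat. However, 48 other genes of the table share at least 10% of the 31-base words of its transcripts, and these held 56580 to 60847 counts per library. Gapdh's own row was 2.13% to 2.56% of the sum. Over the sum of all 49, the genotypes had 886 ± 25.8 and 870 ± 26.8 CPM, a log2 ratio of -0.03 (two-sided exact permutation test, p = 0.5, n = 3, where 0.1 is the smallest p that 3 against 3 libraries allow). How many of the reads of the copies came from Gapdh was not tested, and no change of Gapdh is read from its row.

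**Figure D3:**
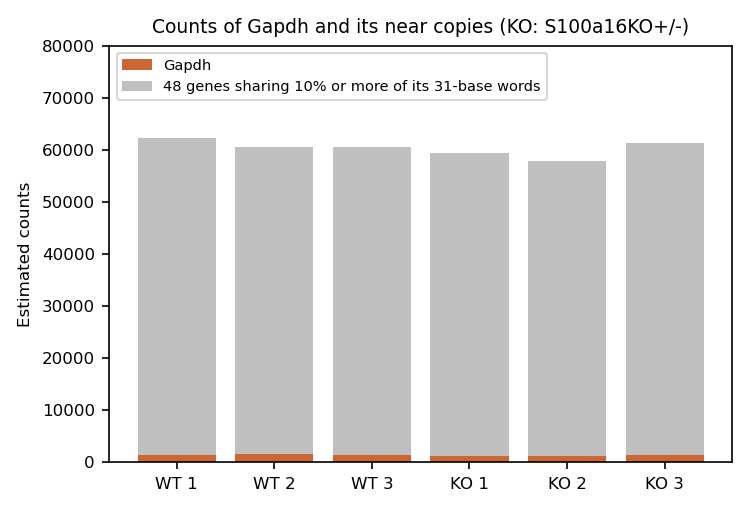
Estimated counts per library of Gapdh (orange) and, stacked on it, of the 48 genes that share at least 10% of its 31-base words (grey). The orange part is under 3% of each bar, and the bars of both genotypes reach about the same height.

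In all, 14 of the 47 genes shared at least 10% of their words with another gene of the table. Eno1 held 88.9% to 90.7% of the sum with its copies, Pkm 83.9% to 88.4%, Suclg2 92.6% to 94.0%, and Pgk1 96.6% to 97.3%. The log2 ratios of the sums were -0.14 for Eno1, 0.52 for Pkm and -0.22 for Suclg2, close to those of these genes alone. G6pdx held only 4.09% to 9.39% of the sum with its overlapping neighbour Ikbkg, and that sum had a log2 ratio of -0.66 beside 0.01 for G6pdx alone. Rpe held 53.8% to 63.2% of its sum, with a log2 ratio of -0.10 beside -0.08 for the gene alone.

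At the pyruvate dehydrogenase step, 3 of 7 genes were lower (Pdhb, Dld and Pdp2) and 0 were higher in edgeR. Of all tested genes, 11.2% were lower and 11.6% higher. With a mean of at least 1 FPKM, the range of all 7, 17.2% were lower and 15.5% higher. On the same 6 libraries, DESeq2 and limma voom gave the same counts for the 7. At an unadjusted p under 0.05, 5 were lower and 0 higher, and the share of all tested genes at that threshold was not counted. The median log2 fold change was -0.18. Pdhb, the beta subunit of the E1 component and the gene with the highest FPKM of the 7 (chromosome 14, 8165996 to 8173025), had 26.9, 28.7 and 28.4 FPKM in WT and 24.1, 21.1 and 23.4 FPKM in S100a16KO+/- libraries. The genotypes did not overlap (-0.30 ± 0.05, adjusted p = 6.77e-04). Its partner Pdha1, the alpha subunit, was not called (-0.02 ± 0.06, adjusted p = 0.878), with 24.3 ± 1.71 and 24.2 ± 2.34 FPKM.

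Dld, the E3 component that the complex shares with 2-oxoglutarate dehydrogenase, fell by 0.26 ± 0.07 (adjusted p = 0.0170), and Pdp2, a phosphatase that activates the complex, fell by 0.28 ± 0.08 (adjusted p = 0.0214). Each call depended on which library was left out. Dld lost its call without WT replicate 2 (adjusted p = 0.0540), WT replicate 3 (0.102), S100a16KO+/- replicate 2 (0.0509) or S100a16KO+/- replicate 3 (0.0523), and Pdp2 lost it without WT replicate 2 (0.0926), WT replicate 3 (0.0724) or S100a16KO+/- replicate 1 (0.0877). The E2 component Dlat (-0.18 ± 0.08, adjusted p = 0.121) and the inactivating kinases Pdk1 (0.03 ± 0.05, adjusted p = 0.744) and Pdk2 (-0.17 ± 0.07, adjusted p = 0.126) were not called. Pdk2 passed the test without S100a16KO+/- replicate 2 (adjusted p = 0.0313).

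In the TCA cycle, 8 of 15 genes were lower (Cs, Aco1, Idh1, Idh2, Idh3a, Dlst, Suclg2 and Mdh2) and only Fh1 was higher. The median log2 fold change was -0.18. The 8 make up 53.3% of the 15, beside 11.2% of all tested genes. Of tested genes with a mean of at least 1 FPKM, the range in which all 15 lie, 17.2% were lower. For 9 of the 15, the 3 S100a16KO+/- libraries lay under all WT libraries in CPM, as for 18.6% of all tested genes. Cs, citrate synthase, which opens the cycle, had 7.56, 7.58 and 7.32 FPKM in WT and 6.02, 5.94 and 6.02 FPKM in S100a16KO+/- libraries (-0.33 ± 0.06, adjusted p = 0.00130). The spread within a genotype was far smaller than the gap. Aco1, the cytosolic aconitase that is also iron regulatory protein 1, fell by 0.18 ± 0.05 (adjusted p = 0.0200) and lost its call without WT replicate 2 (0.0599), WT replicate 3 (0.0799) or S100a16KO+/- replicate 1 (0.0622).

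The isocitrate dehydrogenases fell in 3 of their 5 genes. Idh1, the cytosolic NADP-dependent enzyme, had 51.5, 54.7 and 58.4 FPKM in WT and 44.4, 35.1 and 43.7 FPKM in S100a16KO+/- libraries (-0.43 ± 0.06, adjusted p = 1.88e-04). Idh2, its mitochondrial counterpart, had 30.9, 35.4 and 35.2 FPKM against 26.3, 23.9 and 26.1 FPKM (-0.42 ± 0.05, adjusted p = 4.66e-05). For each of them the S100a16KO+/- values stayed under all WT values. Of the NAD-dependent mitochondrial enzyme, the catalytic subunit Idh3a was lower (-0.45 ± 0.09, adjusted p = 0.00311), at 4.28 ± 0.27 and 3.16 ± 0.57 FPKM, while Idh3b (-0.07 ± 0.05, adjusted p = 0.416) and Idh3g (-0.06 ± 0.07, adjusted p = 0.566) were not called. The differences between subunits were not tested in the fit.

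Further along the cycle, Dlst, the E2 component of 2-oxoglutarate dehydrogenase, fell by 0.32 ± 0.06 (adjusted p = 6.79e-04), and Ogdh, its E1 component, was not called (-0.09 ± 0.06, adjusted p = 0.362). Suclg2, the GTP-forming beta subunit of succinyl-CoA ligase, fell by 0.21 ± 0.05 (adjusted p = 0.00858). The ATP-forming beta subunit Sucla2 (-0.09 ± 0.06, adjusted p = 0.307) and the shared alpha subunit Suclg1 (-0.14 ± 0.05, adjusted p = 0.0825) did not pass. Mdh2, the mitochondrial malate dehydrogenase, had 30.7, 31.8 and 32.0 FPKM in WT and 26.5, 24.3 and 24.9 FPKM in S100a16KO+/- libraries (-0.33 ± 0.05, adjusted p = 4.67e-04). Mdh1, the cytosolic form that works in the malate-aspartate shuttle, had the highest mean FPKM of all 47 rows, Gapdh aside (chromosome 11, 21556692 to 21572367). Its 102, 113 and 122 FPKM in WT and 117, 95.6 and 116 FPKM in S100a16KO+/- libraries overlapped (-0.05 ± 0.06, adjusted p = 0.661).

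Fh1, fumarate hydratase (ENSMUSG00000026526, chromosome 1, 175600374 to 175625635, minus strand), had the smallest adjusted p of the 47 genes and was the exception among the 15. It had 27.1, 31.9 and 31.7 FPKM in the WT libraries and 54.7, 44.1 and 54.5 FPKM in the S100a16KO+/- libraries. The lowest S100a16KO+/- value was well above the highest WT value, and the rise was 67.9% (log2 fold change 0.75 ± 0.06, adjusted p = 8.33e-07). Over all 18 alternatives the log2 fold change stayed between 0.71 and 0.81 and the call held. Fh1 converts fumarate to malate in the mitochondrion and also in the cytosol, where fumarate comes from the urea cycle and purine synthesis. Kmo, a gene of tryptophan breakdown on the opposite strand, overlaps Fh1 and was itself higher by 0.20 ± 0.05 (adjusted p = 0.0139). The libraries keep the strand, but whether the counting used it is not stated in the sources used here.

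**Figure D4:**
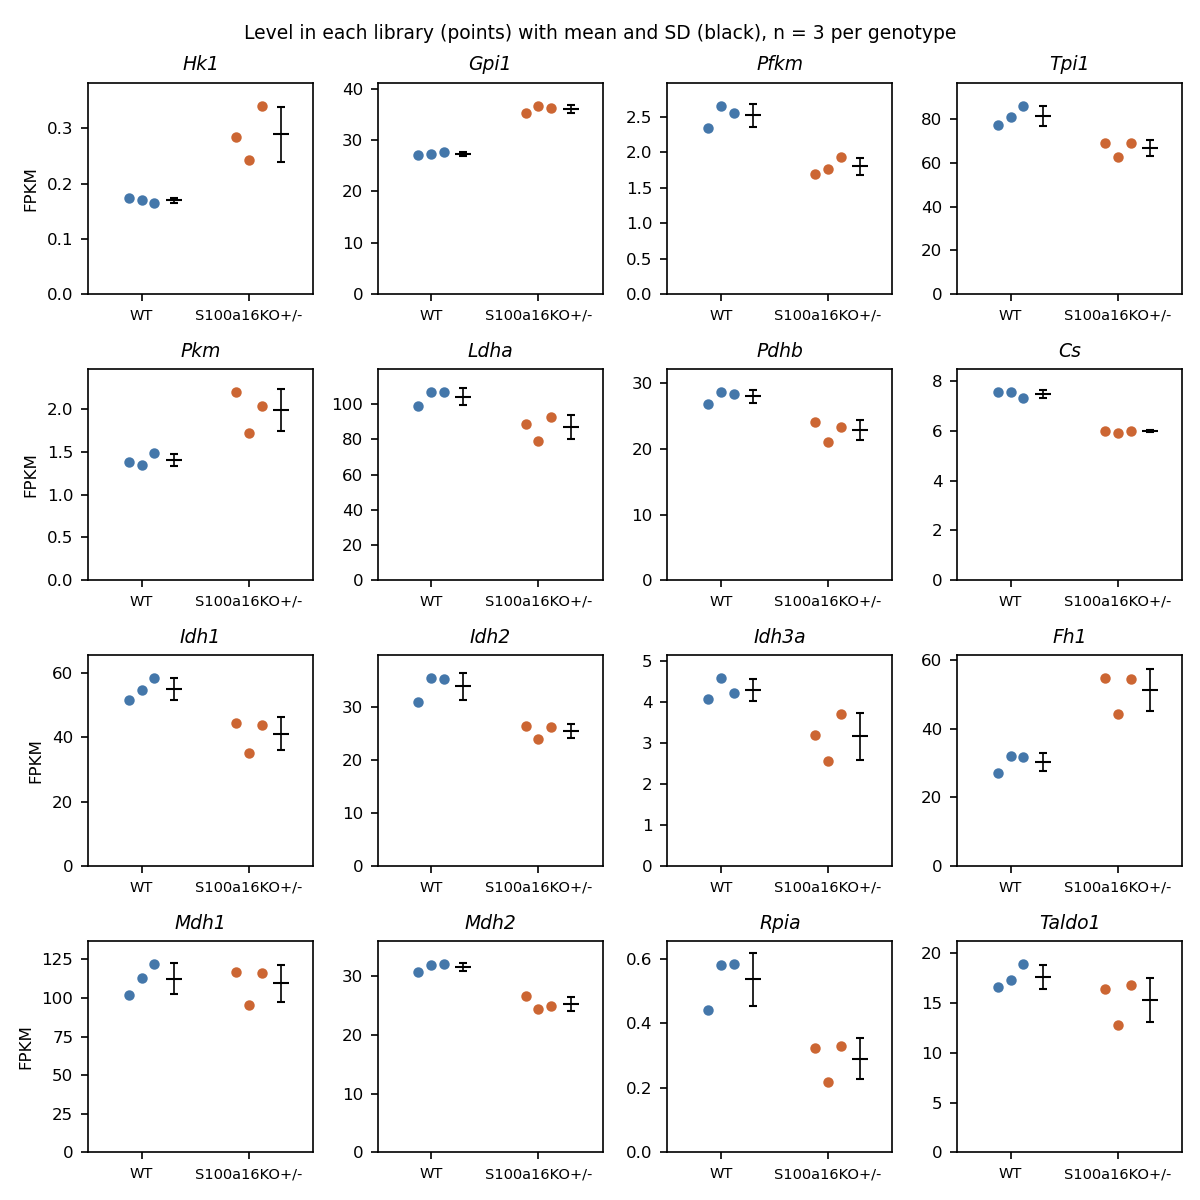
FPKM (vertical axes from 0) of 16 of the genes in each WT library (blue) and S100a16KO+/- library (orange), with the mean and SD of the 3 libraries in black. Hk1, Gpi1, Pkm and Fh1 lie higher in all 3 S100a16KO+/- libraries, whereas the genotypes overlap for Mdh1 and Taldo1.

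In the pentose phosphate pathway, 1 of 7 genes was higher (Pgd) and 1 lower (Rpia), 14.3% each beside 11.6% and 11.2% of all tested genes, and the median log2 fold change was 0.01. G6pdx, the glucose 6-phosphate dehydrogenase that commits glucose to the pathway, stood at 170 to 220 counts per library and was not called (0.01 ± 0.19, adjusted p = 0.974). It overlaps Ikbkg on the other strand, which fell by 0.70 ± 0.08 (adjusted p = 1.02e-05) at 1921 to 4032 counts. Pgls, which opens the lactone ring, did not pass either (0.04 ± 0.08, adjusted p = 0.787). Pgd, the second NADPH-forming dehydrogenase, was higher by 0.22 ± 0.07 (adjusted p = 0.0458), but this call held in only 5 of 18 alternatives and was lost whichever library was left out (adjusted p between 0.0505 and 0.183).

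Rpia, which isomerises ribulose 5-phosphate to ribose 5-phosphate (chromosome 6, 70765720 to 70792232), showed the largest called change of the 47. It had 0.442, 0.582 and 0.584 FPKM in WT and 0.323, 0.217 and 0.331 FPKM in S100a16KO+/- libraries, a fall of 0.88 ± 0.20 on the log2 scale (adjusted p = 0.00592). The genotypes were separate, at 89 to 240 counts per library. Its counterpart Rpe, the epimerase acting on the same substrate, was not called (-0.08 ± 0.11, adjusted p = 0.705). Taldo1, transaldolase, which had the highest FPKM of the 7, had 16.6, 17.3 and 18.9 FPKM in WT and 16.4, 12.8 and 16.8 FPKM in S100a16KO+/- libraries. The FPKM values of the genotypes overlapped by a narrow margin, and Taldo1 missed the threshold (-0.21 ± 0.07, adjusted p = 0.0557). Tkt, transketolase, was not called (0.05 ± 0.07, adjusted p = 0.670).

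The same pathways hold other genes, and 49 of 58 such genes could be tested. Of these, 6 were higher (among them Pklr, Eno3, Adpgk, Pdk4 and Me1) and 10 were lower (among them Tigar, Slc16a1, Mpc1, Dhtkd1, Sdhd, Slc25a10, Shpk and Prpsap2), which is 12.2% and 20.4% of the 49, beside 11.6% and 11.2% of all tested genes. With a mean of at least 1 FPKM, the range of most but not all of the 49, 15.5% of tested genes were higher and 17.2% lower. Pdk4, a kinase that switches pyruvate dehydrogenase off, rose from 0.874, 1.07 and 1.26 FPKM to 1.96, 1.81 and 2.23 FPKM (0.89 ± 0.14, adjusted p = 3.28e-04). Tigar, a fructose 2,6-bisphosphatase, fell by 0.69 ± 0.17 (adjusted p = 0.00839), and Prpsap2, a protein associated with phosphoribosyl pyrophosphate synthetase, fell by 0.58 ± 0.14 (adjusted p = 0.00691). Eno3, the muscle enolase, was higher by 0.50 ± 0.14 (adjusted p = 0.0152). Of the 12 related genes of the TCA cycle, 4 were lower, among them the succinate dehydrogenase subunit Sdhd (-0.35 ± 0.05, adjusted p = 1.71e-04), and 1 was higher, the malic enzyme Me1 (0.44 ± 0.05, adjusted p = 3.06e-05).

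Isoenzymes were then compared within families, as the share of each gene in the summed FPKM of its family in each library. In all, 35 shares in 11 families were tested by a two-sided exact permutation test, in which 0.1 is the smallest p possible and 0.167 the smallest after Benjamini-Hochberg adjustment over the 35, so that no share could pass 0.05. The genotypes did not overlap for 21 of the 35, while for single genes in CPM this held for 37.9% of all tested genes. Shares within a family depend on each other, since a larger share of any gene leaves less for the rest. The 21 are therefore not separate observations.

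For phosphofructokinase, Pfkm went from 43.0% ± 0.67 to 34.2% ± 2.36 and Pfkl from 55.0% ± 0.86 to 64.0% ± 2.41 (exact p = 0.1 for each). In the kinase family of pyruvate dehydrogenase, Pdk4 went from 3.72% ± 0.64 to 7.14% ± 0.59 and Pdk2 from 65.4% ± 2.35 to 60.1% ± 2.19 (exact p = 0.1 for each). With shares taken from TMM-scaled CPM, the Pdk2 share differed by -4.40 percentage points (exact p = 0.2). Among the 5 isocitrate dehydrogenase genes, Idh1 went from 40.8% ± 0.92 to 37.5% ± 1.80 and Idh3b from 20.3% ± 0.51 to 23.9% ± 0.88 (exact p = 0.1 for each), and the summed level of the 5 went from 134 ± 5.84 to 109 ± 9.0 FPKM. Pfkl and Idh3b were themselves not called (log2 fold changes 0.05 and -0.07), so their larger shares are not a rise of these genes.

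In other families 1 form took nearly all of the FPKM. Pklr took 98.0% ± 0.12 and 97.5% ± 0.25 of the pyruvate kinase FPKM, with Pkm as the rest. Ldha took 99.5% ± 0.17 and 99.0% ± 0.09 of the lactate dehydrogenase FPKM. Thus the higher Pkm and the values of Ldhb concerned forms with under 3% of their family's FPKM in each library.

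**Figure D5:**
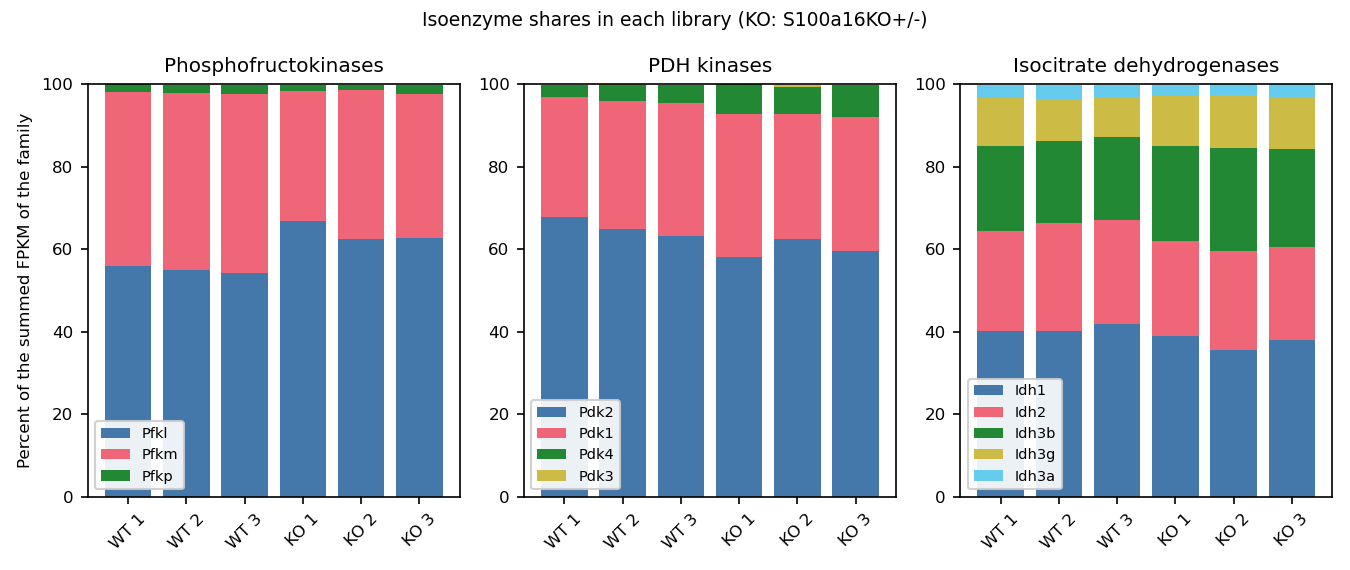
Share (percent) of each gene in the summed FPKM of the phosphofructokinase, pyruvate dehydrogenase kinase and isocitrate dehydrogenase families, as stacked bars for each of the 6 libraries (KO stands for S100a16KO+/-). Pfkm fills less of the phosphofructokinase bar, Pdk4 more of the kinase bar and Idh1 less of the isocitrate dehydrogenase bar in all 3 S100a16KO+/- libraries.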

How the data were processed

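The 6 libraries were grouped by their labels into 3 WT and 3 S100a16KO+/- hepatocyte samples, all from alcohol-fed mice. Nothing in the labels says whether a library came from 1 mouse, so p-values measure the spread between these libraries. The table deposited by the authors holds, per gene, estimated counts without scaling for depth and FPKM values scaled for transcript length and depth in each library. The submitters' processing notes name HISAT2 2.0.4, StringTie 1.3.4d, cutadapt 1.9, UMI-tools and mm10, and the study's methods name DESeq2 for the comparison. The libraries were poly(A)-selected, strand-specific and carried molecular identifiers. In each library more genes had a count of 4 than of 3 or of 5, and higher counts were not tallied. About 4 counts were therefore taken to stand for 1 fragment. On that setting the limit that a count of 0 allows is 12 counts (counting error only).

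The 47 genes and the lists of related genes and cell type markers were chosen with earlier results of these data known. Estimated counts, rounded to whole numbers, were tested with edgeR 4.0.16 in R 4.3.3 (TMM scaling, filterByExpr, robust quasi-likelihood fit, two-sided, no covariate), with Benjamini-Hochberg adjustment over 15957 genes. CPM values are TMM-scaled. FPKM values are given as deposited and were not rescaled. Values are mean ± SD over 3 libraries, and log2 fold changes carry the standard error of the fit. The fit was run on simulated counts with the same dispersion for every gene and known log2 changes of at least 0.5. Smaller changes, and fragments worth about 4 counts, were not simulated, so the run does not bear on most of the calls here. Values per library are given for called genes with a log2 fold change of at least 0.5 in size, else the smallest adjusted p of the pathway, and for the gene with the highest FPKM of each pathway. Per-library values of Gpi1, Pkm, Ldhb, Cs, Idh1, Idh2 and Mdh2 were added after their values were seen.

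Shared 31-base words were counted in GENCODE M21 transcripts, where 40 of the 47 genes had the table's start, end and strand. Promoters are from RefSeq. Alternatives were a replicate block, leaving out each library, DESeq2 size factors, scaling without mitochondrial and the 20 most abundant genes, other filters, DESeq2 1.42.0, limma 3.58.1 (voom, or FPKM plus 1 or 0.1 on the log2 scale), and counts divided by 4. Some genes of the related and marker lists, and the family shares that need them, are not reported here.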

Additional observations from a re-analysis of the deposited data

How the results depend on the processing

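Over 18 alternatives, all 24 called genes kept their direction. Calls held in every alternative for 6 of them (Gpi1, Pfkm, Cs, Idh2, Fh1 and Mdh2) and were lost somewhere for 18. Of the 23 others, 3 were called somewhere (Pdk2, Suclg1 and Taldo1). Leaving out each library gave 4 to 6 genes higher (lowest without WT replicate 3 or S100a16KO+/- replicate 3), 12 to 17 lower, and 0 or 1 by the study's criterion. Without WT replicate 1 and S100a16KO+/- replicate 2 together, an alternative chosen after seeing the data, 7 were higher, 16 lower, and 1 met the criterion. limma on log2(FPKM + 1) and log2(FPKM + 0.1) gave 10 lower. Without a filter log2(FPKM + 1) gave 2 higher and 4 lower, with 3 related genes higher and 4 lower. The cause was not tested.

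The median over the 47 genes was -0.077 with log2(FPKM + 1) and no filter. Without each library it ran from -0.16 (without S100a16KO+/- replicate 3) to -0.11, and the pentose phosphate median from -0.059 (without WT replicate 2) to 0.035. The glycolysis median was 0.063 at a mean of at least 1 CPM and -0.12 with both filtered FPKM fits, in which 5 of its genes under 1 FPKM are left out.

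Genes that were not called changed sign as follows, among the fits without 1 library: Pdha1 ran from -0.048 to 0.024, Idh3g from -0.11 to 0.011, Mdh1 from -0.084 to 0.0066, G6pdx from -0.083 to 0.15, Pgls from -0.024 to 0.12 and Tkt from -0.021 to 0.11. Without the pair of libraries, Idh3g was 0.014, Pgls -0.032 and Tkt -0.027. The Pfkfb1 share of its family differed by 1.20 percentage points, and by -0.947 to 2.87 without each library.

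Replicate numbers shared by the genotypes did not pair the libraries: the correlations of same-numbered deviations were -0.0062, -0.016 and 0.00045, and no library correlated best with its own number. With the replicate block 6 genes were higher and 16 lower, with Eno1, Aco1 and Pgd lost (adjusted p = 0.104, 0.0583 and 0.0950) and Taldo1 gained (0.0473).

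Hk1, Hk2, Pfkp, Ldhb, G6pdx and Rpia had 37 to 240 counts per library.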

Other observations

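The 47 genes together took 0.405% to 0.440% of the counts of a WT library and 0.368% to 0.415% of those of an S100a16KO+/- library. With mitochondrial transcripts left out of the total, the shares were 0.514% to 0.541% and 0.460% to 0.501%, without overlap. The remaining marker lists gave 1 lower gene of 4 tested for cholangiocytes, and 1 higher (Lcn2) and 1 lower gene of 9 tested for lymphocytes and neutrophils.

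Uptake and exit of sugar and lactate were represented by the transporters of the related lists. Slc2a2, the main glucose transporter of the hepatocyte, had 100.2 ± 4.84 FPKM in WT and 102.4 ± 7.78 FPKM in S100a16KO+/- libraries (log2 fold change 0.02 ± 0.05, edgeR adjusted p = 0.792). Slc16a1, a lactate and pyruvate carrier, was lower by 0.49 ± 0.07 on the log2 scale (adjusted p = 1.25e-04), with 6.48, 7.70 and 7.44 FPKM in WT and 5.25, 4.56 and 5.63 FPKM in S100a16KO+/- libraries, which did not overlap. Mpc1, a subunit of the mitochondrial pyruvate carrier, fell by 0.24 ± 0.06 (adjusted p = 0.0106), and the value for the partner subunit Mpc2 was -0.16 ± 0.06 (adjusted p = 0.0705). Slc25a10, the mitochondrial dicarboxylate carrier, fell by 0.30 ± 0.05 (adjusted p = 4.25e-04). Pcx, pyruvate carboxylase, which feeds the cycle with oxaloacetate, did not pass the test (-0.08 ± 0.05, adjusted p = 0.292). These genes were picked for description after their values were seen.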
